A study of Homo sapiens with 6 samples.

Results

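PEG10 and 9 other genes of imprinted loci were examined in HCT116 cells sorted by CD133. Membership was by name (PEG10, SGCE, PEG3, MEST, IGF2, H19, CDKN1C, DLK1, MEG3 and PLAGL1), and a gene counted as measured where a probe set, the group of array probes that reports 1 transcript, carried its symbol alone. By this rule 7 of the 10 genes were measured, out of 18404 genes on the array, and each of the 7 had 1 probe set. PEG3, IGF2 and H19 share their probe sets with other symbols and have no value of their own here. The set was chosen by the measured lower signal of PEG10 in CD133-positive cells. The differences of its 7 measured members between the fractions are therefore given as descriptions without a test.

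Imprinted genes are transcribed mainly from the copy inherited from 1 parent, because DNA methylation laid down in the egg or the sperm silences or activates nearby promoters. They lie in clusters that share such a methylated control region, and neighbours within a cluster often follow the same parental copy. Many of them act in growth of the fetus and placenta, and loss of imprinting, above all at IGF2 and H19, has long been studied in colorectal tumours.

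HCT116 is an established human colorectal carcinoma cell line. CD133, the glycoprotein encoded by PROM1, is used as a surface marker to enrich tumour-initiating cells. Total RNA of CD133-positive and of CD133-negative HCT116 cells was measured on 3 arrays each, with no treatment named, and the repetitions are numbered 1, 2 and 3 in both fractions. It is 1 cell line, and no label tells whether the repetitions came from separate cultures. The p-values therefore rest on a spread among samples that may be technical in part. Values are log2 signals after Robust Multichip Average (RMA) normalization, and each difference subtracts the CD133-negative signal from the CD133-positive one, so a positive value means higher in CD133-positive cells.

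PROM1 had log2 signals of 7.09 to 7.59 in the CD133-positive arrays, against 3.97 to 5.30 in the CD133-negative arrays, as the sort labels say. The 8 colorectal epithelium markers (EPCAM, CDH1, keratins and others) averaged 8.94 to 9.08 per CD133-positive array and 8.89 to 9.14 per CD133-negative array, whereas the 4 measured leukocyte markers averaged 3.54 to 3.70 per CD133-positive array and 3.46 to 3.80 per CD133-negative array. The 5 fibroblast markers averaged 4.11 to 4.43 per CD133-positive array and 4.21 to 4.53 per CD133-negative array. Of these 5, 1 lay above the median of all tested probe sets, COL1A1, at 6.84 to 7.96 over the 6 arrays. Of the 8 epithelium markers, 7 lay above that median, and VIL1 lay below it. Their averages hide opposite signs, as 4 were higher and 4 lower in CD133-positive cells, from -0.48 for KRT18 to 0.40 for CDH1. In all 3 repetitions 4 of the 8 were lower (50%, against 18.4% of all genes) and 1 was higher (12.5%, against 17.7%). The 5 trophoblast markers, of the placental cells in which PEG10 is best known, averaged 3.09 to 3.48 in CD133-positive and 3.21 to 3.41 in CD133-negative arrays. Arrays of 1 repetition resembled each other more (Pearson r of 0.992 to 0.995 across probe sets) than arrays of 1 fraction (0.984 to 0.992).

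PEG10 encodes proteins that resemble the Gag and Pol proteins of a Ty3-type retrotransposon, is expressed from the paternal copy, and is required for placenta formation in mice. Its probe set (8134339) gave log2 signals of 6.83, 6.60 and 7.01 in CD133-positive repetitions 1, 2 and 3, against 8.05, 8.22 and 8.79 in the CD133-negative ones. Every CD133-positive array was below every CD133-negative array. CD133-positive cells averaged 6.81 ± 0.20 and CD133-negative cells 8.35 ± 0.39 (SD, n = 3 each). The mean log2 difference of -1.54 equals a 2.91-fold lower signal. Within repetitions 1, 2 and 3 the log2 differences were -1.22, -1.62 and -1.78. In a bulk extract, fewer PEG10-expressing cells and less PEG10 RNA per cell cannot be told apart.

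SGCE encodes epsilon-sarcoglycan, a membrane glycoprotein. It is the next gene to PEG10 on chromosome 7, is read in the opposite direction from a start close to that of PEG10, and shares its paternal expression. Its probe set (8141035) gave log2 signals of 7.88, 7.54 and 7.71 in CD133-positive cells, against 8.001, 7.79 and 8.01 in CD133-negative cells. SGCE was the lower in the CD133-positive array of each repetition, but the ranges of the fractions overlapped. The mean difference was -1.54 ± 0.29 for PEG10, against -0.22 ± 0.09 for SGCE (SD of 3 within-repetition differences), which for SGCE is 1.17-fold. Subtracting the SGCE difference from that of PEG10 left -1.09, -1.37 and -1.49 in repetitions 1, 2 and 3, a mean of -1.32 ± 0.20 (SD, n = 3). Both neighbours were lower in CD133-positive cells in each repetition, and the difference was larger for PEG10 each time. PEG10 was chosen on this contrast, so the comparison with SGCE is a description only.

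**Figure D1:**
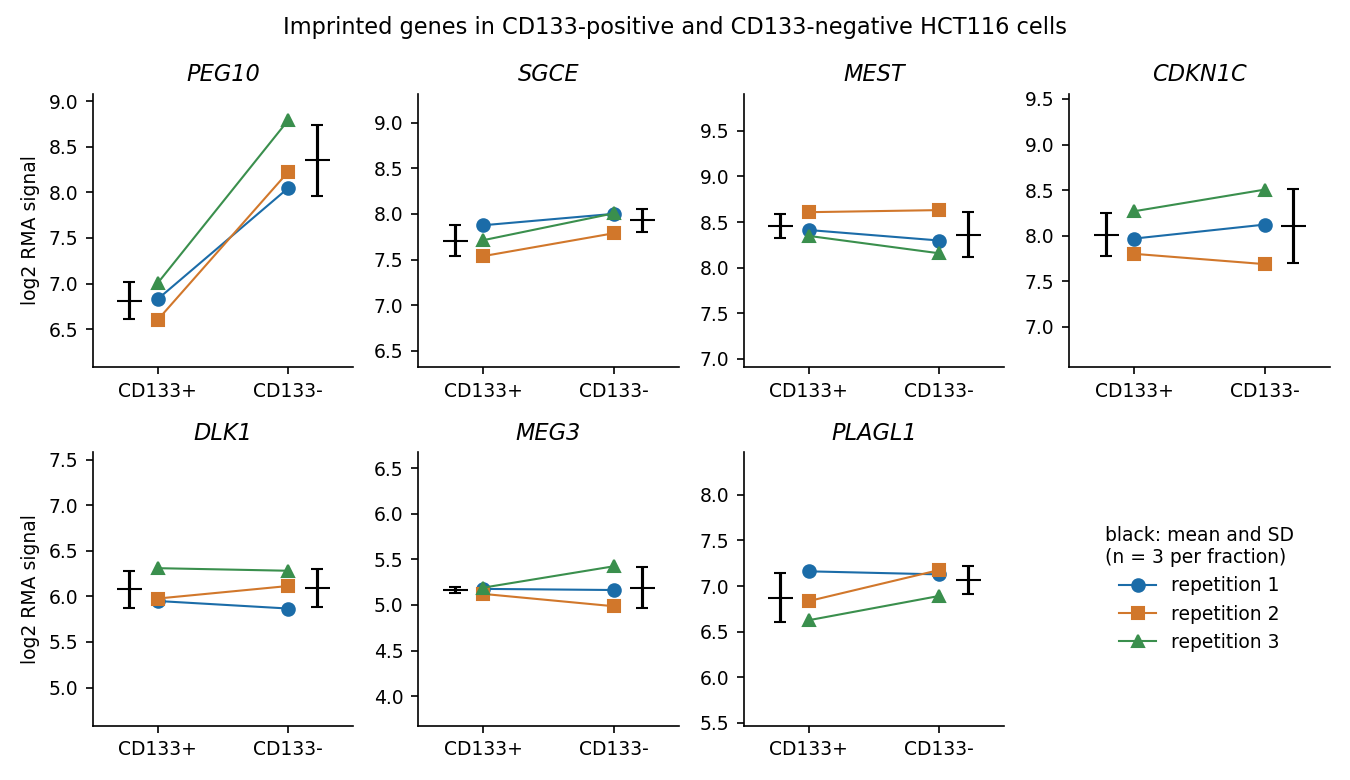
Log2 RMA signal of the 7 measured imprinted genes in CD133-positive (left) and CD133-negative (right) cells, with 1 line per repetition and the mean with SD in black (n = 3 per fraction). Each panel spans 3 log2 units. PEG10 is lower in all 3 CD133-positive arrays, at 6.60 to 7.01 against 8.05 to 8.79, while the ranges of the other 6 genes overlap.

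MEST encodes a member of the alpha/beta hydrolase family and is a paternally expressed gene on chromosome 7, away from PEG10. It gave log2 signals of 8.41, 8.61 and 8.35 in CD133-positive cells, against 8.30, 8.63 and 8.16 in CD133-negative cells. The mean difference was 0.09 ± 0.11 (SD, n = 3), with repetition 2 going the other way at -0.02. The MEST difference was thus smaller than its spread over the repetitions.

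CDKN1C encodes the cyclin-dependent kinase inhibitor p57, expressed from the maternal copy on chromosome 11. Its signals were 7.97, 7.80 and 8.27 in CD133-positive cells, against 8.12, 7.69 and 8.51 in CD133-negative cells, with a mean difference of -0.09 ± 0.18. The ordering of the repetitions was the same in both fractions, repetition 3 being the highest and repetition 2 the lowest.

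DLK1 and MEG3 lie in 1 imprinted cluster on chromosome 14. DLK1 encodes a membrane protein of the Notch ligand family and is expressed from the paternal copy. It gave log2 signals of 5.95, 5.98 and 6.31 in CD133-positive cells, against 5.87, 6.11 and 6.28 in CD133-negative cells, a mean difference of -0.0089 ± 0.11. MEG3 is a long noncoding RNA of the maternal copy. Its signals of 5.18, 5.12 and 5.19 in CD133-positive cells, against 5.16, 4.99 and 5.42 in CD133-negative cells, gave a mean difference of -0.03 ± 0.19. MEG3 was the 1 measured member whose mean lay below the median of all tested probe sets.

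PLAGL1 encodes a zinc finger transcription factor that restrains proliferation, expressed from the paternal copy on chromosome 6. Its signals were 7.16, 6.84 and 6.63 in CD133-positive cells, against 7.13, 7.18 and 6.89 in CD133-negative cells. The mean difference was -0.19 ± 0.20. The difference was 0.03 in repetition 1, and -0.34 and -0.27 in repetitions 2 and 3, and the fractions overlapped.

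Across the 6 measured genes other than PEG10, mean differences ran from -0.22 to 0.09 with a median of -0.06. The smallest PEG10 difference within a repetition was 3.58 times the size of the largest difference of any of these 6 genes within a repetition. Of the 7 genes, 2 (PEG10 and SGCE) were lower in CD133-positive cells in all 3 repetitions, a pattern that 18.4% of all genes showed. The fractions did not overlap for 1 member, PEG10, and 4.52% of all genes were lower without overlap. By size of the difference PEG10 ranked 10th of 18404 genes, and 5th among those lower in CD133-positive cells. The members were chosen on this contrast for the low signal of PEG10. Nothing is therefore read from these counts, from the ratio of PEG10 to the other members or from its ranks.

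**Figure D2:**
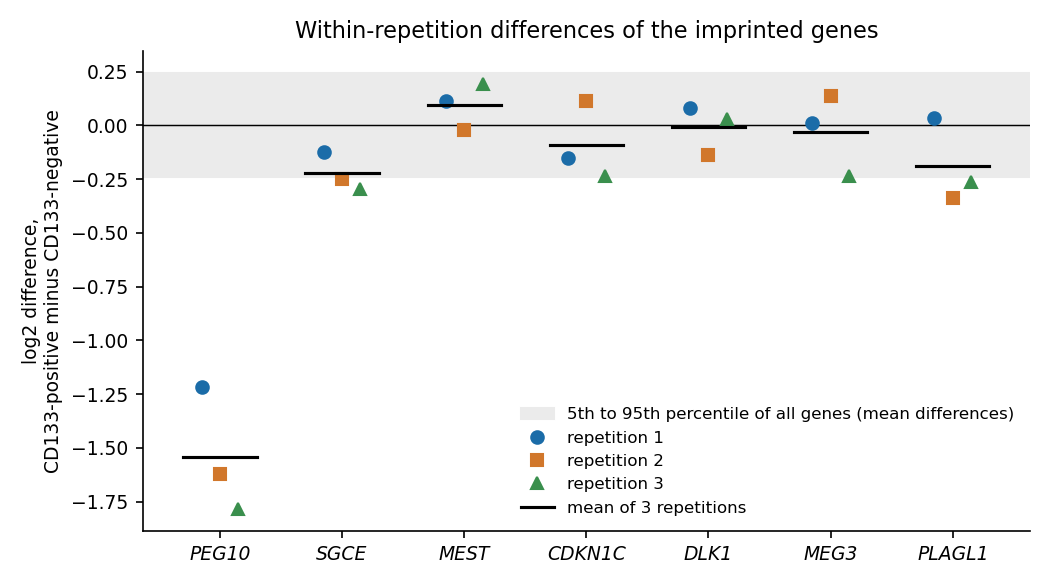
Log2 difference, CD133-positive minus CD133-negative, of each measured imprinted gene within repetitions 1, 2 and 3, with the mean as a bar. The grey band runs from -0.24 to 0.25, the 5th to 95th percentile of mean differences over all genes. PEG10 lies between -1.22 and -1.78, and the means of the other 6 genes lie inside the band.

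The start regions of 3 measured members were in the RefSeq promoter table (GRCh38.p14), each window running from 250 bases before to 50 bases after a start. They are shown because parental methylation of imprinted genes is written on CG dinucleotides at such starts, as is known for all 3 genes. MEST and PLAGL1 had 5 windows each and MEG3 had 3, and the window with the most CG dinucleotides is printed per gene. It is chr7:130491835-130492134 (plus strand) for MEST, chr6:144008210-144008509 (minus strand) for PLAGL1 and chr14:100825858-100826157 (plus strand) for MEG3. Capitals mark each CG.
MEST start: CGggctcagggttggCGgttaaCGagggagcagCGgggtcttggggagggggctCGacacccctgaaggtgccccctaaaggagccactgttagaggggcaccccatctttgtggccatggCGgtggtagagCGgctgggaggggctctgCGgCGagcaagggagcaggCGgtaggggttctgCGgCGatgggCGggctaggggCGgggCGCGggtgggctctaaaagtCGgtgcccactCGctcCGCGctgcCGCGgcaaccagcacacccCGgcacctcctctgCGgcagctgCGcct
PLAGL1 start: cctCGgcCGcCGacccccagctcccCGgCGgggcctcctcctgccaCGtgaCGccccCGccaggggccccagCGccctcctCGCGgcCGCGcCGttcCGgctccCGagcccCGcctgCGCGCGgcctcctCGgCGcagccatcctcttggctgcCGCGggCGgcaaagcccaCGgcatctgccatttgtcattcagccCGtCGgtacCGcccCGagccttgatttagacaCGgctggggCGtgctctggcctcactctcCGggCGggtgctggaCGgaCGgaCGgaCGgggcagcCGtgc
MEG3 start: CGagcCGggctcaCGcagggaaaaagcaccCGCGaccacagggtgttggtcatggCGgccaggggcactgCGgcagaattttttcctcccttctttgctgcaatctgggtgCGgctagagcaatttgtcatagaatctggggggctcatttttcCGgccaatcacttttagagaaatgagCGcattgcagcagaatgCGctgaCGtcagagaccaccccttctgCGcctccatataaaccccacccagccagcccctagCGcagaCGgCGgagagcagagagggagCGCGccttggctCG

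These windows, picked as the richest of each gene, held 25 CG dinucleotides for MEST, 39 for PLAGL1 and 19 for MEG3. Over all their windows MEST ranged from 13 to 25, PLAGL1 from 2 to 39 and MEG3 from 17 to 19, and the median was 14 over 35116 windows of all genes, which were not picked so. The hexamer TGCCGC, which the imprint-protecting zinc finger protein ZFP57 binds when methylated, was searched on both strands (also as GCGGCA). It occurred 3 times in the printed MEST window, 2 times in that of PLAGL1 and 1 time in that of MEG3. Of the windows of each gene, 4 of 5 held it for MEST, 1 of 5 for PLAGL1 and 3 of 3 for MEG3, where windows of 1 gene can overlap, and 16.7% of all windows held it. These are matches of letters, and methylation was not measured here.

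The repetitions, which the choice of genes did not use, were compared over both fractions with limma, a linear model with moderated variance fitted to all 28230 tested probe sets, by its F test with group in the model and a Benjamini-Hochberg threshold of 0.05. CDKN1C was the 1 of 7 members to pass, with adjusted p = 0.0413, against 15.3% of all genes. Its means over both fractions were 8.05, 7.75 and 8.39 in repetitions 1, 2 and 3. Repetition 3 thus exceeded repetition 2 by 0.64 on the log2 scale. The call ended in each fit that left out 1 of the 6 arrays (adjusted p = 0.0595 to 0.153). It also ended when repetition was the only term (0.0535), after centring on array medians (0.0652) and with control probe sets included (0.0828). PEG10 itself was higher in repetition 3, with means of 7.44, 7.41 and 7.90 (adjusted p = 0.103). For MEST, DLK1, PLAGL1, SGCE and MEG3 the adjusted p was 0.105, 0.0985, 0.144, 0.190 and 0.331. The median range of repetition means was 0.28 over all genes, and those of the members ran from 0.25 for MEG3 to 0.64 for CDKN1C.

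**Figure D3:**
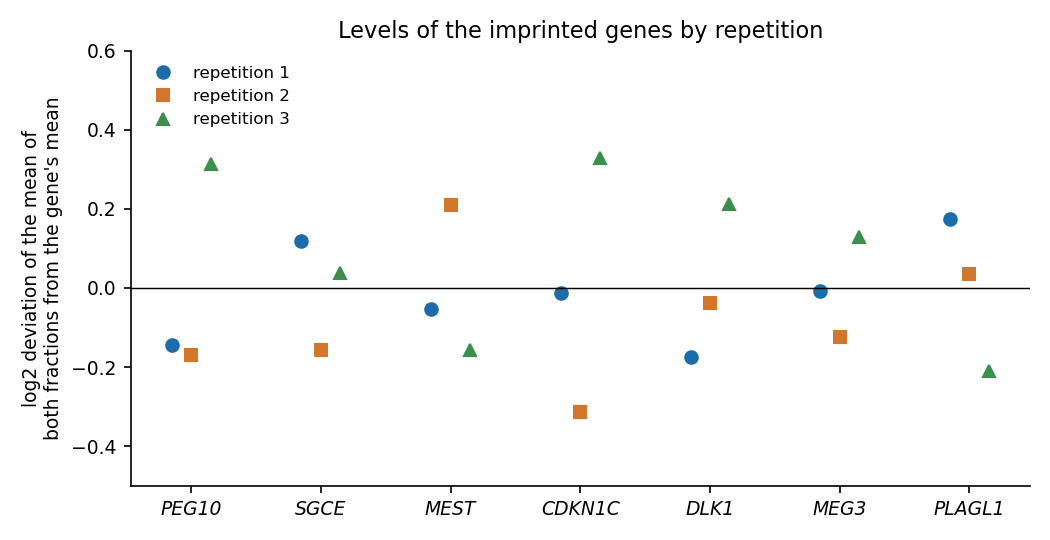
Mean log2 signal of both fractions in each repetition, as a deviation from the gene's mean over the 3 repetitions, for the 7 measured imprinted genes. CDKN1C spans the widest range, 0.64, and repetition 3 is the highest for PEG10, CDKN1C, DLK1 and MEG3.

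The measured members were set beside 49 other imprinted genes, those of a list of 62 that had a probe set of their own. The list was drawn from textbook knowledge, and whether each gene is imprinted in these cells was not measured. Their difference between the fractions was tested with limma at the same threshold. With group as the only term 0 of 49 passed, against 0.00543% of all genes (1 gene), and 1 of 49 had an unadjusted p under 0.05, against 3.47% of all genes. With repetition added as a block, the paired fit, 0 of 49 passed, against 0.369% of all genes, and 7 of 49 had an unadjusted p under 0.05, against 11.6% of all genes. In CD133-positive cells 18 of the 49 were higher and 31 lower, a share of 63.3% lower against 52.1% of all genes, and their median difference was -0.02 against -0.0064 over all genes. Differences were under 0.25 on the log2 scale, a size chosen after the values were seen, for 46 of 49 (93.9%), as for 90.6% of all genes. The other 3 were all higher in CD133-positive cells and were ASCL2, PPP1R9A and CPA4.

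ASCL2 is a transcription factor of intestinal stem cells that is imprinted in mouse placenta. It averaged 5.31 ± 0.06 in the CD133-positive fraction and 5.01 ± 0.13 in the CD133-negative fraction (SD, n = 3 each). The difference was 0.30 (limma adjusted p = 1.00, and 0.246 with the block), and the ASCL2 mean lay below the median of all tested probe sets. PPP1R9A, a regulator of actin that lies near PEG10 in the same imprinted cluster, averaged 5.99 ± 0.18 in CD133-positive cells and 5.72 ± 0.20 in CD133-negative cells, a difference of 0.27 (limma adjusted p = 1.00, and 0.334 with the block). CPA4, a carboxypeptidase gene near MEST, named after its value was seen, averaged 6.70 ± 0.48 in CD133-positive cells and 6.23 ± 0.51 in CD133-negative cells, and its difference was 0.14, 0.58 and 0.70 in the 3 repetitions (limma adjusted p = 1.00, and 0.238 with the block). Just under the chosen size, ZDBF2 (-0.24, lower in 3 of 3 repetitions) and LRRTM1 (-0.23) were lower in CD133-positive cells.

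Other imprinted genes on the chromosomes of the members had differences of at most 0.47 in size. On chromosome 6, that of PLAGL1, the 3 others had 2 higher and 1 lower, and ran from -0.19 for FAM50B, lower in 3 of 3 repetitions, to 0.04. On chromosome 7 the 7 other imprinted genes had 3 higher and 4 lower, from -0.19 for GRB10, a growth factor receptor adaptor, to 0.47 for CPA4. On chromosome 11 the 13 others, among them KCNQ1 and PHLDA2 of the CDKN1C cluster, ran from -0.13 to 0.30. The KCNQ1 potassium channel gene had 0.10, and PHLDA2, a growth-restraining gene of placenta, had -0.0010. On chromosome 14 the retrotransposon-derived RTL1 had -0.03, with mixed signs in repetitions 1, 2 and 3 (0.06, 0.04 and -0.18). The thyroid hormone deiodinase gene DIO3 had -0.20 and was lower in each repetition.

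Within the list of genes around PEG10 on chromosome 7, 14 of 14 were measured, 8 were higher and 6 lower, and the median difference was 0.02. With limma 0 of 14 passed in either fit (1 and 2 at an unadjusted p under 0.05 without and with the block, where all genes had 3.47% and 11.6%, shares that serve for the lists below too). PON2, encoding an antioxidant lactonase, averaged 8.42 ± 0.15 in CD133-positive cells and 8.09 ± 0.19 in CD133-negative cells, a difference of 0.33 (limma adjusted p = 1.00, and 0.233 with the block). The whole list ran from -0.18 to 0.33.

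Genes that descend from retrotransposon Gag sequences, as PEG10 does, had 7 of 21 measured members higher and 14 lower, with a median of -0.05. With limma 0 of 21 passed in either fit (1 and 2 at an unadjusted p under 0.05 without and with the block). ZCCHC12, a gene of this kind that encodes a zinc finger protein, averaged 4.42 ± 0.23 in CD133-positive cells and 4.997 ± 0.17 in CD133-negative cells, with differences of -0.37, -0.39 and -0.98 (limma adjusted p = 0.955, and 0.194 with the block). Its arrays did not overlap between fractions, and 4.52% of all genes were lower without overlap. The ZCCHC12 mean lay below the median of all tested probe sets. RTL5 had differences of -0.59, 0.13 and -0.71 (limma adjusted p = 1.00, and 0.455 with the block).

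Receptors, adaptors and binding proteins of IGF2 had 10 of 18 measured members higher and 8 lower, with a median of 0.02. With limma 0 of 18 passed in either fit (1 and 3 at an unadjusted p under 0.05 without and with the block). IRS1, the adaptor of the insulin and IGF1 receptors, averaged 7.95 ± 0.18 in CD133-positive cells and 7.45 ± 0.06 in CD133-negative cells, with differences of 0.43, 0.43 and 0.64 (limma adjusted p = 0.887, and 0.112 with the block). IGF1R, the receptor that carries the growth signal of IGF2, averaged 6.92 ± 0.25 in CD133-positive cells and 7.39 ± 0.35 in CD133-negative cells, with differences of -0.22, -0.44 and -0.74 (limma adjusted p = 1.00, and 0.215 with the block).

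DNA methylation enzymes and factors that maintain imprints had 14 of 24 measured members higher and 10 lower, with a median of 0.02. With limma 0 of 24 passed in either fit (0 and 4 at an unadjusted p under 0.05 without and with the block). DNMT3B, a methyltransferase that sets new DNA methylation, averaged 6.74 ± 0.19 in CD133-positive cells and 6.44 ± 0.35 in CD133-negative cells, a difference of 0.30 (limma adjusted p = 1.00, and 0.316 with the block). TET2, which oxidises methylated cytosine, had a difference of -0.16 (limma adjusted p = 1.00, and 0.570 with the block). DPPA3, a factor that protects maternal methylation in the mouse egg and zygote, was named after its value was seen. It averaged 3.32 ± 0.74 in CD133-positive cells and 3.82 ± 0.58 in CD133-negative cells, below the median of all tested probe sets. Its difference, -0.50, was the largest of the list and was negative in 3 of 3 repetitions, but the fractions overlapped and it did not pass (limma adjusted p = 1.00, and 0.194 with the block).

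Partners of SGCE in the sarcoglycan and dystrophin complex had 3 of 9 measured members higher and 6 lower, with a median of -0.02, and 0 of 9 passed with limma in either fit (1 and 3 at an unadjusted p under 0.05 without and with the block). UTRN, encoding the dystrophin-related utrophin, averaged 6.38 ± 0.26 in CD133-positive cells and 6.92 ± 0.10 in CD133-negative cells, with differences of -0.38, -0.69 and -0.56 (limma adjusted p = 1.00, and 0.107 with the block). DTNA, encoding a dystrobrevin, had a difference of 0.24 (limma adjusted p = 1.00, and 0.365 with the block).

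**Figure D4:**
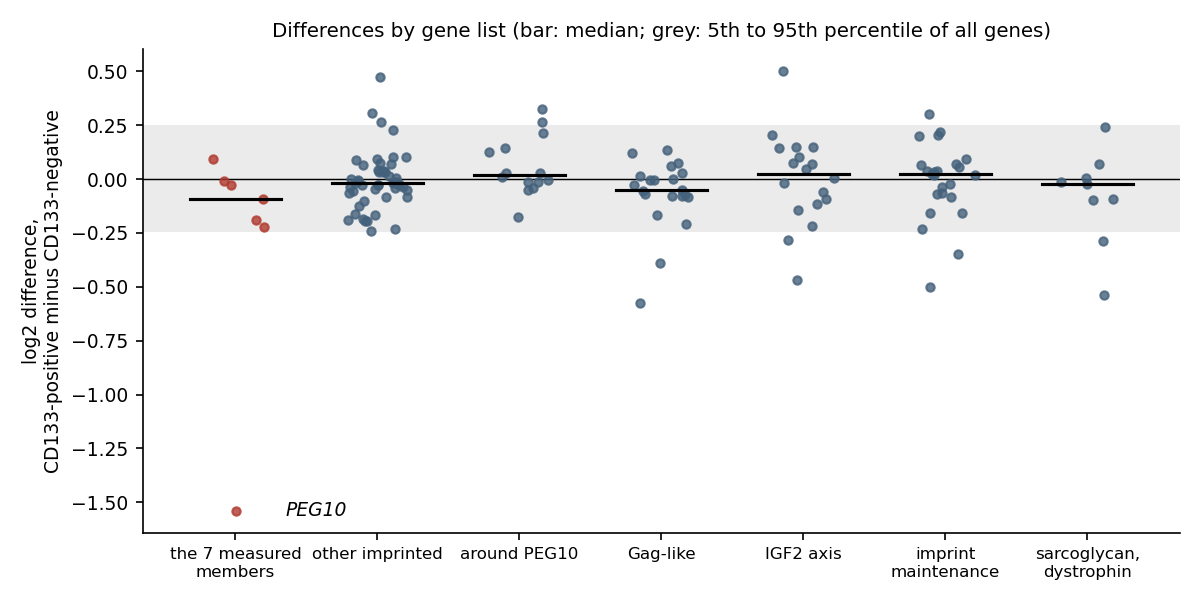
Mean log2 difference, CD133-positive minus CD133-negative, of each measured gene by list, with the list median as a bar and the 5th to 95th percentile of all genes in grey. PEG10 lies at -1.54, below every gene of the 6 other lists, of which the lowest, ZCCHC12, has -0.58.

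The genes nearest to PEG10 in profile were found from the root mean square distance between profiles over the 6 arrays, each centred on its own mean. They were MAP1B, a microtubule-binding protein gene (distance 0.15), the transcription factor gene GLIS3 (0.16), the teneurin gene TENM3 (0.20), ANGPT2, an angiopoietin ligand gene (0.23), and SEMA3C, a secreted semaphorin gene (0.28). SGCE lay at 0.70, and the median over all other genes was 0.82. MAP1B gave log2 signals of 6.45, 6.57 and 6.999 in CD133-positive cells, against 7.90, 7.94 and 8.41 in CD133-negative cells. Like PEG10, MAP1B, GLIS3, TENM3 and SEMA3C were highest in repetition 3 in both fractions, and ANGPT2 was so in CD133-positive cells only. SEMA3C gave 6.26, 6.10 and 6.48 in CD133-positive cells, against 7.30, 6.92 and 8.21 in CD133-negative cells. The distance includes the difference between the fractions on which PEG10 was chosen, so it describes likeness only. None of the 5 is among the other imprinted genes examined.

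**Figure D5:**
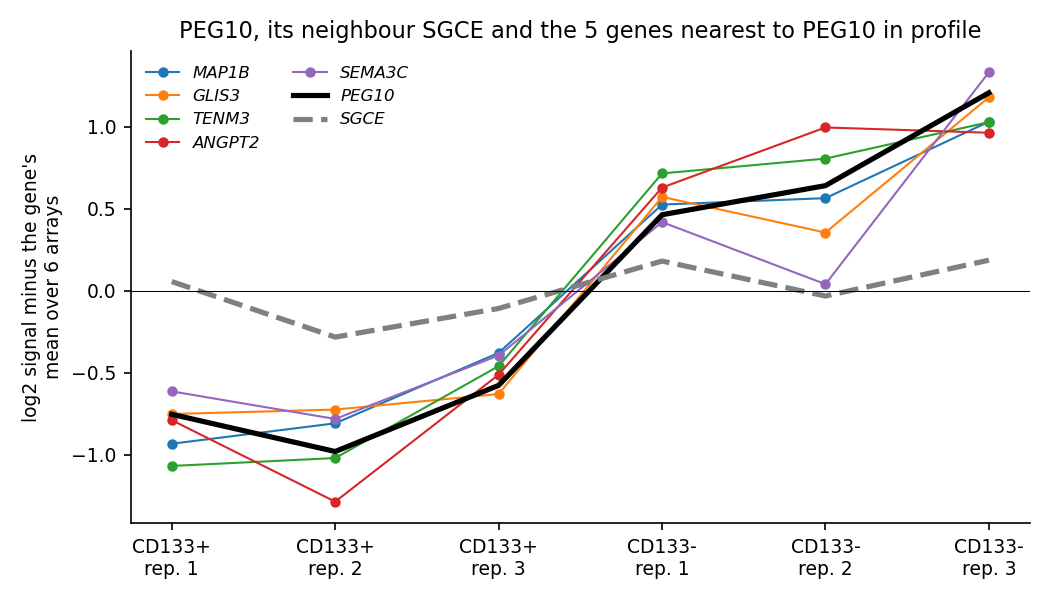
Log2 signal of PEG10 (black), SGCE (grey, dashed) and the 5 genes nearest to PEG10, each minus its own mean over the 6 arrays, for CD133-positive then CD133-negative arrays. The 5 genes lie within a root mean square distance of 0.28 of PEG10, and SGCE lies at 0.70.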

How the data were processed

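The deposited values are log2 signals that the authors made with Robust Multichip Average (RMA), per the labels. Their range, 1.09 to 13.7, is that of a log2 scale. The design text gives a U133 array, but the identifiers of the rows are those of the whole-transcript platform whose annotation was used. Of 32321 rows, the leading 4091, which precede the first row with a gene, were left out as controls, and 28230 probe sets were tested. Of these, 19158 carried 1 symbol, 1388 several and 7684 none. Each gene was represented by its brightest probe set, on average over all 6 arrays, and 0 columns of values went unused.

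Fits used limma 3.58.1 in R 4.3.3 (lmFit, eBayes) with Benjamini-Hochberg adjustment over all probe sets. Group was the only term, or repetition was added as a block. The fits were also run on simulated data with independent normal errors, whose recovered and false calls are not given here. After subtraction of the group means, arrays with the same number correlated across probe sets (0.447, 0.616 and 0.589 for repetitions 1, 2 and 3), so the numbers were taken as pairs. The members and lists were chosen with earlier results of these data known. All measured members were named, and in each list the genes that passed or otherwise the 2 of smallest unadjusted p. The PEG10 neighbours in profile were the 5 of smallest distance; no other member ranged over 1 log2 unit. Of the list symbols, 4 were updated through gene identifiers. Alternatives were the block, left-out arrays and repetitions, quantile normalization, median centring, controls included, averaged probe sets and a filter on dim ones. With 3 arrays a fraction, the smallest two-sided p of an exact permutation test that ignores the pairs is 0.1. It is larger where the pairs are kept. The number of arrays limits the precision.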

Additional observations from a re-analysis of the deposited data

How the results depend on the processing

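The PEG10 difference minus the SGCE difference kept its sign and stayed within 1 SD of -1.32 in all alternatives run for it (-1.505 to -1.14 without single arrays, -1.43 to -1.23 without single repetitions). Of these, the block, averaged probe sets, the filter on dim ones and median centring could not change it by construction. The PEG10 difference ran from -1.70 to -1.32. SGCE and PLAGL1 also kept their sign in 14 of 14 alternatives, whereas MEST, CDKN1C, DLK1 and MEG3 changed sign in some. For each member the block, averaged probe sets and the filter could not change the difference. PEG10 was chosen on this contrast, so its stability is a description only. The 49 other imprinted genes had 0 limma calls in every alternative (0 to 7 at an unadjusted p under 0.05). Over all probe sets the count of calls was 1, against 84 with the replicate block and 0 after repeated quantile normalization, after median centring and with controls included. It was 0 to 2 without single arrays, and 43, 18 and 0 without repetitions 1, 2 and 3 in the block fit. Of the members, 1 passed between repetitions, against 0 without any single array, with repetition as the only term and with controls included, 3 with averaged probe sets (PEG10, CDKN1C and DLK1) and 4 among probe sets above the median mean (those and MEST). The last 2 settings test fewer features. After median centring the 1 member that passed was MEST (adjusted p = 0.0458) in place of CDKN1C, and the cause was not tested. CDKN1C stayed past the threshold in 3 of 12 alternatives. No member had a second probe set to compare, and MEG3 has no value under the filter on dim probe sets.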

Other observations

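The 3 members with no value of their own lay on probe sets annotated to several symbols, so none of these values belongs to 1 gene. The probe set shared by H19 and RPS12 averaged 6.25 ± 0.18 in the CD133-positive fraction and 6.44 ± 0.24 in the CD133-negative fraction (SD, n = 3 each), with log2 differences of -0.19, -0.13 and -0.24 in repetitions 1, 2 and 3. The probe set shared by INS-IGF2, INS and IGF2 averaged 6.25 ± 0.24 in CD133-positive cells and 6.37 ± 0.21 in CD133-negative cells, with differences of -0.22, -0.11 and -0.03. Both were lower in CD133-positive cells in 3 of 3 repetitions, a pattern that 18.4% of all genes showed, and their fractions overlapped. The probe set shared by ZIM2 and PEG3 averaged 4.55 ± 0.02 in CD133-positive cells and 4.73 ± 0.29 in CD133-negative cells, with differences of -0.11, 0.05 and -0.47. None of these 3 passed the limma fit with the repetition block (adjusted p = 0.460, 0.665 and 0.636).

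Over both fractions 6 of the 49 other imprinted genes passed the limma F test between repetitions (12.2%, against 15.3% of all genes), namely ANO1, RB1, CPA4, ZDBF2, L3MBTL1 and IGF2R. ANO1, a chloride channel gene, was highest in repetition 2, with means of 7.79, 8.61 and 7.57 in repetitions 1, 2 and 3 (adjusted p = 0.0132). Among DNA methylation and imprint maintenance factors 6 of 24 passed. The maintenance methyltransferase gene DNMT1 had means of 9.16, 9.39 and 8.79 (adjusted p = 0.0329). Its cofactor gene UHRF1 had 8.52, 9.15 and 8.21 (adjusted p = 0.0286). Both were highest in repetition 2 and lowest in repetition 3, as were EZH2 and EED. The remaining genes that passed, TET1 and DPPA3, were instead highest in repetition 3. Their means were 5.67, 4.97 and 6.12 for TET1 and 2.89, 3.64 and 4.19 for DPPA3. These genes were chosen after their values were seen.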
